A study of Mus musculus with 32 samples.

Results

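In RADICL-seq, fixed nuclei are used to join RNA by a bridge adapter to the DNA beside it, and sequencing reads both ends of the joined molecule. The interactions described here are those in which the RNA tag and the DNA tag lay on the same chromosome (in cis), more than 1 Mb and at most 10 Mb apart, each tag being given as the single base at its centre. Of 25231081 listed interactions in 15 libraries, 2047179 met this rule, or 8.11%, and they are called 1 to 10 Mb contacts below. They came from 3349 RNA genes and reached 54162 bins of 25 kb. A further 7903577 listed interactions (31.3%) were cis contacts of 100 kb to 1 Mb and 430997 (1.71%) were cis contacts beyond 10 Mb.

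The libraries were made from a pair of mouse lines, R08, a male embryonic stem cell line (mESC), and Oli-neu, a neural line derived from oligodendrocyte progenitor cells (mOPC). Each cell type is thus 1 line, and the replicates were batches of cells of different passage number. Cells fixed in 1% formaldehyde gave the groups mESC 1FA and mOPC 1FA with 3 libraries each, and cells fixed in 2% gave mESC 2FA, also with 3. For mESC ActD4, 2 libraries were made from cells kept for 4 h in actinomycin D at 5 µg/ml ahead of fixation, and mESC NPM and mOPC NPM have 2 libraries each. Actinomycin D blocks transcription, and in the NPM (non-protein-mediated) libraries proteins were digested and crosslinks reversed before ligation. The deposited lists hold transcripts paired with 25-kb bins that passed a test on pooled replicates, so a gene listed at 0 may still have been captured, and the replicates of a group share 1 list of pairs, which makes the spread between them smaller than that of lists called apart.

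Nascent RNA stays attached to its template by RNA polymerase, and an RNA therefore meets the DNA of its own gene and of the sequence folded near it most often. Chromosomes fold into topologically associating domains and larger compartments, and contacts of more than a megabase usually cross several domain borders. RNAs known to act over such distances in cis include imprinted noncoding RNAs such as Kcnq1ot1, which silences neighbouring genes, whereas MALAT1 and NEAT1 are abundant nuclear RNAs found at many active genes.

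For orientation, the mm10 bases around the RNA position that each of 8 RNAs used most often in its 1 to 10 Mb contacts are shown on the RNA strand, 29 bases each, with the base at that position in capitals. They show which stretch of RNA was caught most often, which was annotated as an intron in 6 of the 8 and as an exon in Malat1 and Snord118. The window named Fgfr2 lies in a gene model that overlaps other genes, as described below, and its RNA cannot be assigned to Fgfr2. The windows lie at chr7:133067681-133067709 (minus strand, Fgfr2), chr13:44762013-44762041 (plus, Jarid2), chr6:33277785-33277813 (plus, Exoc4), chr15:62148941-62148969 (plus, Pvt1), chr5:23389772-23389800 (minus, 5031425E22Rik), chr15:92067098-92067126 (plus, Cntn1), chr19:5796810-5796838 (minus, Malat1) and chr11:69073535-69073563 (plus, Snord118).
Fgfr2: gcattggcagaggcAgggccctatgaggg
Jarid2: atcccccgacaaggCgtatgcagctggag
Exoc4: tgacttctgtagtaCtaatcttagagcag
Pvt1: gcactcatcatgtgTtaggccctgtggga
5031425E22Rik: caccatactgtgcgCtgtaaacaaagcag
Cntn1: caataagagataaaAactttccaggaaga
Malat1: aaaggcactgaaggCttaatgtaggacag
Snord118: acaacatcctggttGctcctatctgattc

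A single base carried few of an intronic RNA's far contacts. The base in Jarid2 held 95 of 15032 contacts in mESC 1FA (0.632%), that in Pvt1 131 of 19066 in mOPC 1FA (0.687%) and that in 5031425E22Rik 126 of 10098 in mOPC 1FA (1.25%). The exonic RNAs were more concentrated. The Malat1 base held 298 of 6013 contacts in mOPC 1FA (4.96%), and the Snord118 base, which lies near the 3′ end of this short snoRNA, held 61 of 121 in mESC ActD4 (50.4%).

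The share of listed interactions that lay 1 to 10 Mb away differed between the groups by more than the spread between replicates. It was 9.57, 8.62 and 9.31% in the mESC 1FA libraries and 11.3, 12.7 and 12.5% in the mOPC 1FA libraries, so that the groups did not overlap. The difference of the means, 9.17% ± 0.488 (SD, n = 3) in mESC and 12.2% ± 0.737 (SD, n = 3) in mOPC, was 3.01 percentage points, and the two-sided exact permutation test gave p = 0.1, the smallest that these library numbers allow. The mESC 2FA share was 7.91% ± 0.146 (SD, n = 3) and lay 1.26 points under mESC 1FA (exact permutation p = 0.1, again the smallest possible). In mESC ActD4 the share was 1.27% ± 0.0236 (SD, n = 2), 7.19 times lower than in mESC 1FA (exact permutation p = 0.1, the smallest possible). The NPM shares were 0.0366 and 0.0642% in mESC and 0.112% ± 0.00915 (SD, n = 2) in mOPC. The mean difference from 1FA over both cell types was -10.6 points (exact permutation within cell types, p = 0.01, the smallest possible).

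The groups differed in how many contacts their listed pairs held. Listed interactions are what the calling kept, not the uniquely mapped interactions it started from. In the paper, the number before calling was similar in mOPC NPM and mOPC 1FA. It was lower in mESC ActD4 and mESC NPM than in mESC 1FA. Counting a pair's contacts at all distances, the fewest of any pair with a 1 to 10 Mb contact were 6 in mESC 1FA and 7 in mESC ActD4, which is 0.755 and 10.4 per 1000000 listed interactions. The same value was 6.71 in mESC NPM, 3.25 in mOPC NPM and 0.950 in mOPC 1FA. When each group was thinned to 670583 interactions and pairs of at least 5 contacts were kept, the share was 2.65 to 2.92% in mESC 1FA and 1.26 to 1.29% in mESC ActD4. With pairs of at least 20 contacts the direction turned, and mESC ActD4 lay 0.256 points above mESC 1FA. At the same thinned number, the share with at least 20 contacts was 0.166 to 0.199% in mESC 1FA and 0.426 to 0.449% in mESC ActD4, so the turn came with the higher minimum per pair. The thinning equalised listed interactions, not those before calling, and it left mESC ActD4 whole. A fixed minimum per pair is also not the test that called the pairs. These shares therefore do not show what libraries of equal depth would give. For NPM the gap stayed wide with pairs of at least 5 contacts, at 0.0329 and 0.0641% in mESC NPM, and at 0.0546 and 0.0593% in mOPC NPM against 4.65 to 5.24% in mOPC 1FA.

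**Figure D1:**
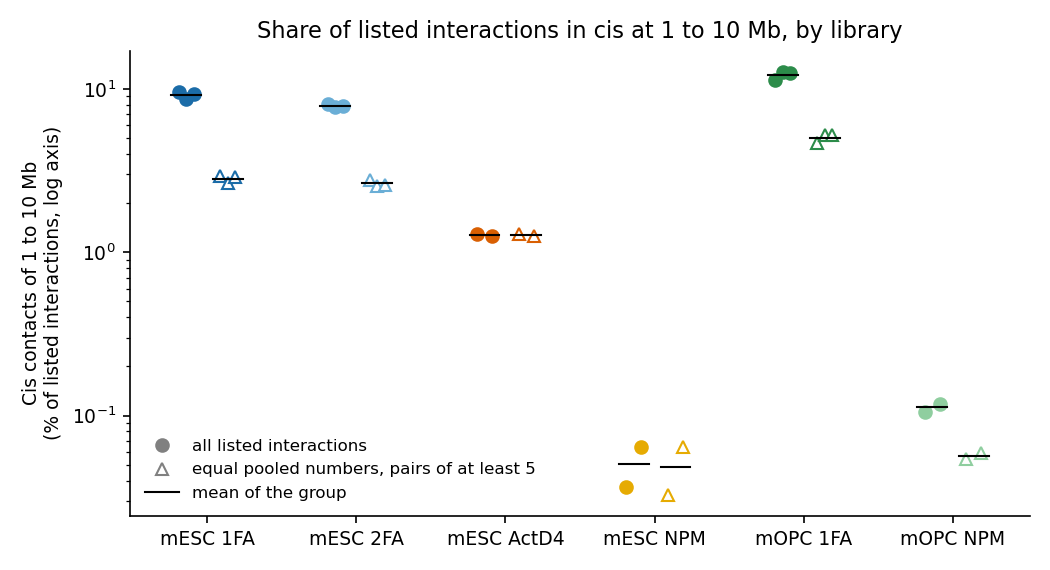
Share of each library's listed interactions (percent, log y axis) that were 1 to 10 Mb cis contacts, by group. Filled circles are all listed interactions, open triangles keep pairs of at least 5 contacts after thinning to equal pooled numbers, and black lines are group means. The mOPC 1FA circles (11.3 to 12.7%) all lie above the mESC 1FA circles (8.62 to 9.57%), and the triangles of mESC 1FA and mESC ActD4 lie closer together than their circles.

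Within the range, nearer contacts were the more frequent in the 1FA groups. In mESC 1FA 58.0% of the contacts lay within 1 to 2 Mb, 31.1% within 2 to 5 Mb and 10.9% within 5 to 10 Mb, with a median of 1.75 Mb over the pooled contacts. In mOPC 1FA the same shares were 49.7, 35.1 and 15.1% and the median was 2.01 Mb. The 5 to 10 Mb share was 15.0 to 15.4% in the mOPC 1FA libraries and 10.6 to 11.1% in the mESC 1FA libraries, with no overlap. Of all mOPC 1FA contacts, 3.18 to 3.35% joined 22 to 24 Mb with 31 to 39 Mb of chromosome 5, a window described below. It held none in mESC. Those contacts all lie beyond 5 Mb and are part of the higher share, and the share without them was not computed. In mESC ActD4 68.2% lay within 1 to 2 Mb and 3.49% beyond 5 Mb. The NPM groups went the other way, with 52.4% of the mESC NPM and 74.7% of the mOPC NPM contacts beyond 5 Mb. These 2 groups held few contacts, 550 and 2757, and each was dominated by 1 locus described below. At the lower limit of the rule, 77128 contacts of mESC 1FA lay within 0.1 Mb inside and 93783 within 0.1 Mb outside. At the upper limit, 10292 lay within 1 Mb inside and 10642 within 1 Mb outside, whereas in mOPC NPM 585 lay inside and 87 outside.

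**Figure D2:**
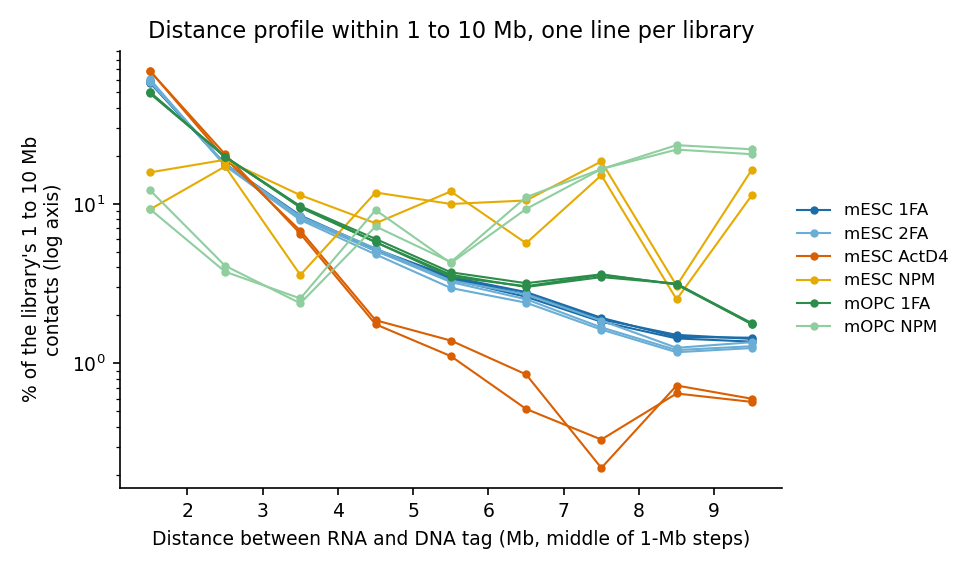
Share of a library's 1 to 10 Mb contacts (percent, log y axis) in each step of 1 Mb (x axis, distance from RNA tag to DNA tag in Mb), 1 line per library coloured by group. The mESC 1FA, mESC 2FA, mESC ActD4 and mOPC 1FA lines fall from 1 to 5 Mb, whereas the mOPC NPM lines have most of their contacts beyond 5 Mb.

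The RNA tags of these contacts were mostly intronic. Averaged over libraries, mESC 1FA had an intronic share of 92.6% and mOPC 1FA one of 93.3%, while mESC ActD4 had 89.9%, mESC NPM 62.7% and mOPC NPM 93.8%. Compared with the cis contacts of 100 kb to 1 Mb of the same library it was higher by 10.7 points on average, and by 2.56 to 41.3 points in 15 of 15 libraries (two-sided exact sign-flip permutation test, p = 6.10e-05, n = 15). In the 11 libraries without NPM the mean difference was 4.36 points ± 1.87 (SD, exact sign-flip permutation p = 0.000977, n = 11). Replicates of a group share 1 list of pairs, so the libraries are not independent units and the sign-flip p-values of this paragraph overstate the evidence. Long noncoding RNAs carried 3.18% of the 1 to 10 Mb contacts in mESC 1FA, 6.21% in mESC ActD4 and 8.63% in mOPC 1FA. The DNA tags lay in an annotated gene in 59.8% of contacts in mESC 1FA, 61.3% in mOPC 1FA and 77.5% in mESC ActD4. Against the 100 kb to 1 Mb contacts the difference was -5.27 points with 11 of 15 libraries below 0 (exact sign-flip permutation p = 0.0432, n = 15), but -2.05 points in the 11 libraries without NPM (exact sign-flip permutation p = 0.131, n = 11). These means mix groups of opposite sign. Of the 11 libraries, the 9 of mESC 1FA, mESC 2FA and mOPC 1FA lay below 0 and the 2 of mESC ActD4 above. Group means were 59.8 against 63.0% in mESC 1FA, 61.3 against 66.1% in mOPC 1FA and 77.5 against 71.5% in mESC ActD4. In mOPC NPM they were 65.1 against 94.5%.

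Whether contacts lay more often downstream of the RNA gene depended on how pairs were weighed. The share of contacts on the 3′ side, in the direction of transcription, was 49.5 to 51.4% in the 11 libraries without NPM, and its mean lay 0.0422 points above 50% (exact sign-flip permutation p = 0.904, n = 11). When each pair was counted once, the 3′ side held more in 11 of these 11 libraries, by 0.323 to 4.19 points and by 1.5 points on average (exact sign-flip permutation p = 0.000977, the smallest possible). In mOPC NPM it was 60.3 and 63.7%. Over all 15 libraries the mean was 2.22 points above 50% (exact sign-flip permutation p = 0.0565, n = 15), and 4.98 points with each pair counted once (exact sign-flip permutation p = 6.10e-05). Replicates of a group share 1 list of pairs. Counted once, these were nearly the same set in each replicate, with 51.3, 51.1 and 51.2% in mESC 1FA. The libraries are therefore not independent units, and the sign-flip p-values of this paragraph overstate the evidence.

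The contacts were spread over many RNAs in the 1FA and 2FA groups and over few in mESC ActD4 and the NPM groups. In mESC 1FA 729679 contacts came from 2363 genes and 70 of these carried 50% of them. In mESC 2FA 537300 contacts came from 1944 genes, with 56 carrying 50%. In mOPC 1FA 768319 contacts came from 2155 genes, with 78 carrying 50%. In mESC ActD4 the 8574 contacts came from 173 genes, and the 10 leading genes held 51.2%. In mOPC NPM 1 gene, Lhfpl3, held 70.1% of the contacts of 33 genes. With Fgfr2 left out, a DNA bin usually met 1 RNA only (64.6% of 35300 bins in mESC 1FA, 65.6% of 33942 bins in mOPC 1FA). The median pair held 11 contacts in both of these groups.

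Fgfr2, a fibroblast growth factor receptor, is given apart because its gene model in the annotation spans 2961 kb of chromosome 7 and overlaps 36 other genes. It carried 45904 of the 2047179 contacts. Its level was 2904, 3068 and 3068 contacts per 1000000 listed interactions in mESC 1FA, 251.0, 321.7 and 327.7 in mOPC 1FA, and 780.8 and 909.4 in mESC ActD4. The mOPC 1FA libraries lay far below the mESC 1FA libraries (limma log2 fold change -3.34, SE 0.112, Benjamini-Hochberg adjusted p = 3.55e-08). However, 85.7% of its RNA tags in mESC 1FA lay inside Ctbp2, the gene of a transcriptional corepressor, and 37.1% did in mOPC 1FA, and the DNA tag lay inside the Fgfr2 model itself in 21.3% and 43.6%. These contacts can therefore not be assigned to Fgfr2 RNA. All ranks of genes and bins below leave Fgfr2 out.

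The 10 leading RNAs of mESC 1FA were Wwox, Jarid2, Exoc4, Pvt1, Msi2, Arl15, Ntn1, Rad51b, Smyd3 and Gm20388. Wwox, a tumour suppressor encoded over a fragile site, was at 2792, 2455 and 2442 contacts per 1000000 listed interactions and met 579 bins, with 2.79% of all contacts of the group. Of the cis contacts of Wwox up to 10 Mb, 55.1% lay 1 to 10 Mb away. Jarid2, a cofactor of Polycomb repressive complex 2, was at 1761, 1904 and 2007 and met 523 bins. Exoc4, a subunit of the exocyst, was at 1427, 1587 and 1787 per 1000000. Pvt1, a long noncoding RNA gene next to Myc, was at 1218, 1429 and 1637. Wwox lay above Jarid2 in every library of the group, whereas Jarid2, Exoc4 and Pvt1 each overlapped with the next in rank.

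The leading RNAs also differed in how far and to which side their contacts went. Msi2, which encodes an RNA-binding protein, had a median distance of 4.08 Mb in mESC 1FA with 41.9% of contacts beyond 5 Mb. Ntn1, the gene of the guidance cue netrin-1, had a median of 4.18 Mb and 77.5% of its contacts on the 3′ side. Cobl, an actin nucleator, had a median of 3.88 Mb. Agap1, the gene of an Arf GTPase-activating protein, had a median of 1.86 Mb and 0.0181% of contacts beyond 5 Mb. Gm20388, the last of the 10, is an annotated model of 4435 kb on chromosome 8, and 90.9% of its RNA tags lay inside other genes.

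The 10 leading RNAs of mOPC 1FA were Pvt1, Anks1b, 2610035D17Rik, Babam2, 5031425E22Rik, Cntn1, Agap1, Lhfpl3, Auts2 and Sox6. Pvt1 led with 2671, 3153 and 3259 contacts per 1000000, or 2.48% of the group, over 368 bins. Anks1b, a scaffold protein gene of neurons, was at 2210, 2609 and 2592 over 566 bins. The long noncoding RNA 2610035D17Rik was at 1999, 2553 and 2003, and Babam2, which encodes a member of the BRCA1-A complex, at 1928, 2167 and 2220. The first library was the lowest of the 3 for Pvt1, Anks1b, 2610035D17Rik and Babam2, as it was for the share of 1 to 10 Mb contacts. Cntn1, a cell adhesion molecule of axons and oligodendrocyte lineage cells, was at 1315, 1504 and 1533 and Sox6, a transcription factor of oligodendrocyte progenitors, at 1013, 1257 and 1150. Both were listed at 0 in all 10 mESC libraries.

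**Figure D3:**
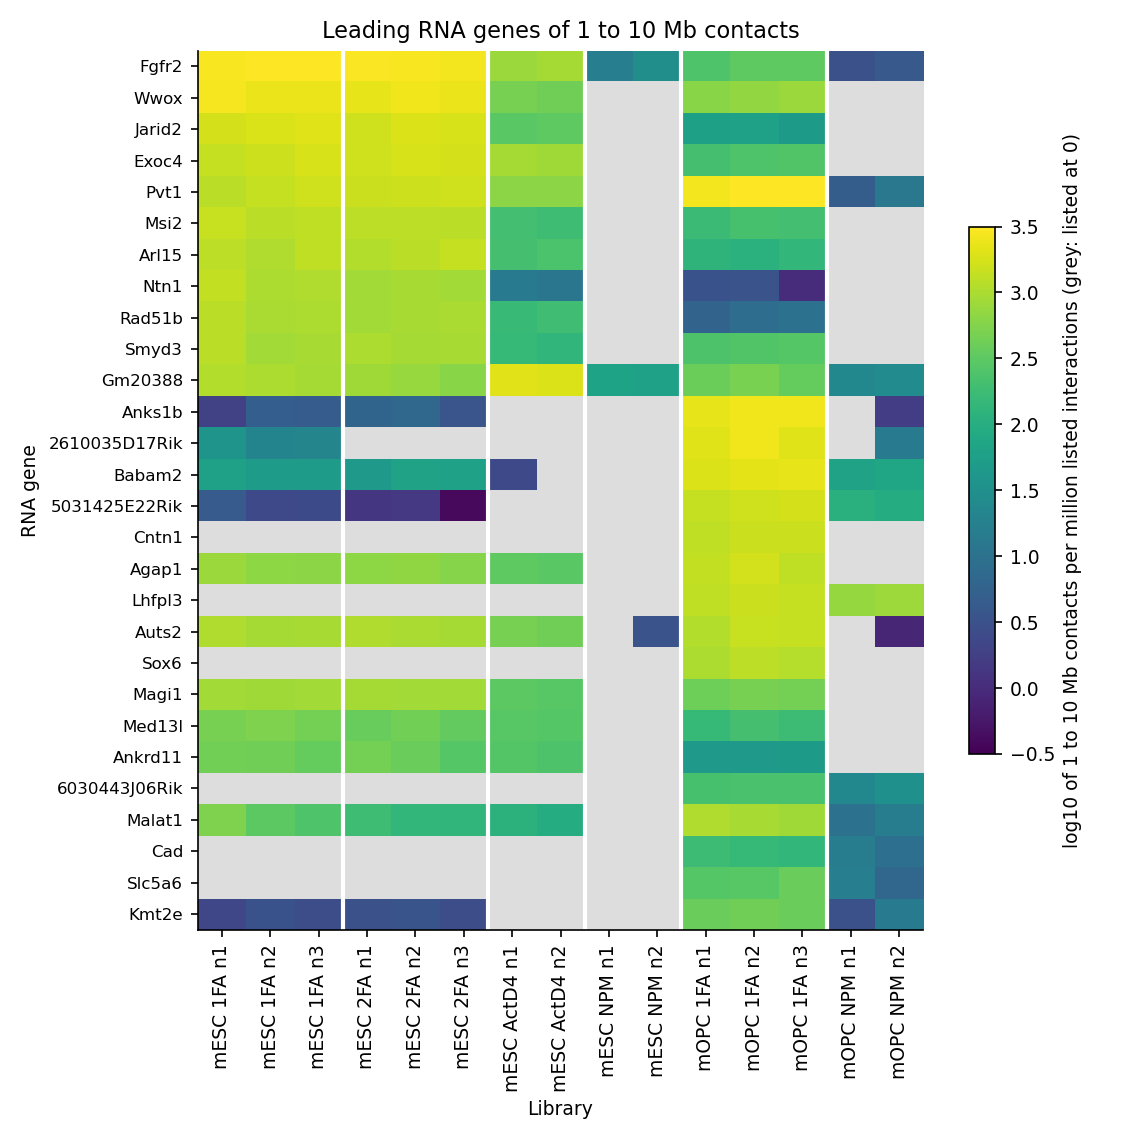
Contacts of 1 to 10 Mb per 1000000 listed interactions (colour, log10 scale; grey where a gene was listed at 0) of Fgfr2 and the leading RNA genes of mESC 1FA, mOPC 1FA, mESC ActD4 and mOPC NPM (rows) in the 15 libraries (columns). Wwox, Jarid2 and Exoc4 are brightest in the mESC 1FA and mESC 2FA libraries, Cntn1, Sox6 and Lhfpl3 are grey in all mESC libraries, and Pvt1 is high in both cell types.

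Between the cell types most tested RNAs differed. Among 1773 RNA genes with at least 10 contacts in every library of mESC 1FA or of mOPC 1FA, limma on log2 of contacts per 1000000 (prior count 0.5, Benjamini-Hochberg adjusted p under 0.05) called 713 higher in mOPC (40.2%) and 912 lower (51.4%). Factors computed after the TMM method (trimmed mean of M-values), called TMM-like here, gave 787 higher and 835 lower. With equal pooled numbers and pairs of at least 5 contacts, which left few genes to test, the balance turned to 91 higher and 41 lower. Of the 1773 genes, 378 were listed at 0 in mOPC 1FA and 366 in mESC 1FA. Among the 1029 listed in both groups, 347 were higher and 534 lower, and the median log2 fold change was -0.66.

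Markers of a cell type were listed mainly in that cell type, which is a description, since a marker enters the test through the group in which it is high. Of the 30 mESC markers in the list, 11 had a 1 to 10 Mb contact and 9 could be tested, of which 8 were listed at 0 in mOPC 1FA. Among these were Esrrb, a pluripotency transcription factor at 226.4, 187.2 and 165.2 contacts per 1000000 in mESC 1FA, and Tet1, a methylcytosine dioxygenase at 385.7, 363.7 and 424.7. Jarid2 fell from the levels above to 59.3, 61.7 and 48.5 (log2 fold change -5.06, SE 0.117, limma adjusted p = 4.28e-09). Of the 30 mOPC markers, 18 had such a contact and 15 could be tested, of which 11 were listed at 0 in mESC 1FA. Of the 4 listed in both groups Epn2 had a log2 fold change of 1.73 and Chst11, a chondroitin sulfotransferase gene, one of 5.73. Tnr, Cntn1, Lhfpl3 and Sox6 were listed at 0 in mESC 1FA. Summed over the list, mESC markers stood at 3212 contacts per 1000000 in mESC 1FA and 56.5 in mOPC 1FA, and mOPC markers at 42.9 and 9238. In these bulk libraries fewer cells with an RNA and less of that RNA per cell cannot be told apart, and the part of RNA amount in these differences was not tested.

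Markers of other cell types were scarce. None of 10 astrocyte and microglia markers had a listed 1 to 10 Mb contact. Of 10 neuron markers 2 had one, Syt1, a synaptic vesicle calcium sensor at 56.5 to 67.4 contacts per 1000000 in mOPC 1FA and listed at 0 in mESC 1FA, and Stmn2, a tubulin-binding protein at 26.6 to 35.2 in mESC 1FA and listed at 0 in mOPC 1FA. Of 10 primitive endoderm and trophoblast markers Dab2 and Gata4 had a few contacts and could not be tested.

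The largest differences were of RNAs listed in 1 cell type. Cntn1, Lhfpl3, Sox6, Tnr, Zeb2 and Nlgn1 led the genes higher in mOPC 1FA. Tnr, an extracellular matrix glycoprotein gene of the oligodendrocyte lineage, was at 981.6, 1117 and 1268 contacts per 1000000, Zeb2, a transcription factor that promotes myelination, at 1094, 1195 and 1003, and Nlgn1, a synaptic adhesion molecule, at 963.0, 1045 and 1214. All 6 were listed at 0 in mESC 1FA, so no fold change is given. Etl4, Cobl, Rbpms, Gli2, Tet1 and Abcc4 led the genes lower in mOPC 1FA and were listed at 0 there. Etl4 was at 1077, 745.0 and 867.4 in mESC 1FA and Gli2, a Hedgehog pathway transcription factor, at 464.8, 372.7 and 415.1.

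Several leading RNAs were listed in both cell types at different levels. Wwox was at 614.7, 702.2 and 784.4 per 1000000 in mOPC 1FA, below every mESC 1FA library (log2 fold change -1.88, SE 0.105, limma adjusted p = 8.78e-07). Exoc4 was at 210.8, 249.1 and 255.1 (log2 fold change -2.75, SE 0.116, limma adjusted p = 1.52e-07). Pvt1 rose (log2 fold change 1.09, SE 0.124, limma adjusted p = 7.44e-05), as did Agap1 (1.05, SE 0.122, limma adjusted p = 8.40e-05). Anks1b was at 1.87, 4.91 and 4.59 per 1000000 in mESC 1FA, far below the levels above (9.38, SE 0.339), and passed the filter through mOPC 1FA alone. Rad51b, a homologous recombination gene, was at 1241, 994.8 and 1027 in mESC 1FA and at 5.88, 8.54 and 10.0 in mOPC 1FA (-7.05, SE 0.208, limma adjusted p = 1.68e-08).

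**Figure D4:**
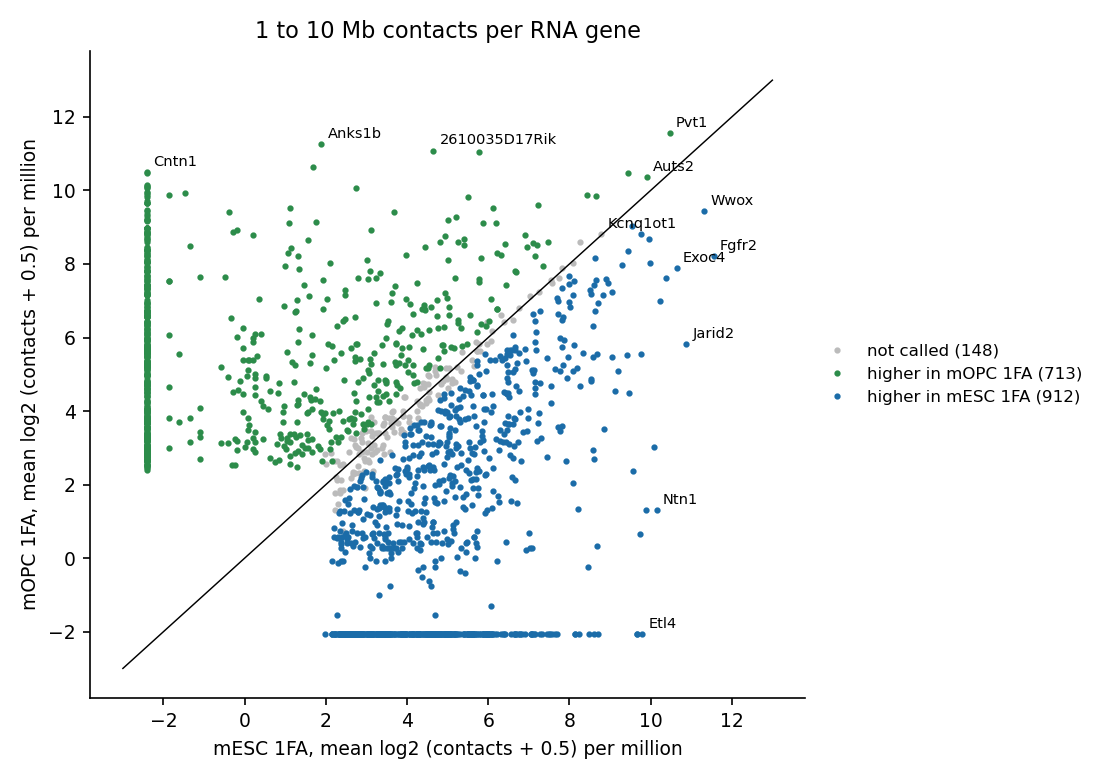
Mean log2 of contacts of 1 to 10 Mb (prior count 0.5) per 1000000 listed interactions of each tested RNA gene in mESC 1FA (x axis) and mOPC 1FA (y axis), with a line of equal values. Points are coloured by the limma call, with 713 higher in mOPC, 912 lower and 148 not called, the points in a column at the left are genes listed at 0 in mESC 1FA, and those in a row at the bottom are listed at 0 in mOPC 1FA.

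A list of 16 long noncoding RNAs held imprinted and cis-acting RNAs and also Malat1 and Neat1. Of these 8 could be tested, of which 3 (Pvt1, Malat1 and Neat1) were called higher in mOPC 1FA and 4 lower, against 40.2 and 51.4% of all tested genes. Malat1 was at 534.9, 308.0 and 254.5 contacts per 1000000 in mESC 1FA and at 1041, 959.8 and 844.4 in mOPC 1FA (limma log2 fold change 1.44 with an SE of 0.26, adjusted p = 0.00109). Neat1, the scaffold of paraspeckles, was at 25.1, 13.9 and 10.6 and at 297.2, 350.6 and 266.1 (4.27, SE 0.307, limma adjusted p = 4.27e-06). Meg3, Tsix, Rian and Nespas were listed at 0 in mOPC 1FA. Kcnq1ot1 was at 503.4, 428.0 and 395.7 in mESC 1FA and at 404.8, 434.1 and 512.8 in mOPC 1FA, so that the groups overlapped (0.03, SE 0.129, limma adjusted p = 0.848). The median log2 fold change of the 8 was -2.86, against -0.72 over all 1773 genes.

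Genes of the cohesin complex and its partners, which form chromatin loops, were present at low levels. Of 11 in the list 7 could be tested, of which 5 were called lower in mOPC 1FA and 1, Smc3, higher, against 51.4 and 40.2% of all tested genes. Stag1, a cohesin subunit, was at 150.3, 157.7 and 163.8 contacts per 1000000 in mESC 1FA and at 11.8, 7.59 and 9.51 in mOPC 1FA (limma log2 fold change -4.02 with an SE of 0.178, adjusted p = 2.09e-07). Nipbl, the cohesin loader, differed little (-0.42, SE 0.165, limma adjusted p = 0.0405) and its groups did not overlap. Of 30 very long genes 26 could be tested, of which 19 were called higher in mOPC 1FA and 7 lower, against 40.2 and 51.4% of all tested genes, and 8 of the 26 were listed at 0 in 1 group (median log2 fold change 3.32), with Lsamp, a neural adhesion molecule, at 826.4, 856.8 and 1165 in mOPC 1FA. Of 10 transcripts that the study itself had named from these data 9 could be tested, of which 3 were higher and 5 lower, against the same 40.2 and 51.4%, a count that is no independent evidence.

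The reach of an RNA was taken as its 1 to 10 Mb contacts over its cis contacts up to 1 Mb, a ratio in which the amount of the RNA cancels to first order. Among the same 1773 genes limma called 699 with a higher reach in mOPC 1FA (39.4%) and 741 with a lower reach (41.8%), but these counts include genes without any contact in 1 group, whose ratio is set by the prior count. Among the 1029 listed in both groups 354 were higher and 397 lower, with a median log2 difference of -0.17. Pvt1, for which the level differed, had a reach of 0.742, 0.733 and 0.754 in mESC 1FA and of 0.723, 0.782 and 0.764 in mOPC 1FA, which overlapped (log2 difference 0.03, SE 0.0524, limma adjusted p = 0.661). Wwox differed slightly, with 1.24, 1.23 and 1.21 against 1.06, 1.09 and 1.10 (-0.18, SE 0.0372, limma adjusted p = 0.00336). Jarid2 had a reach of 0.653, 0.671 and 0.655 in the mESC 1FA libraries, against 0.217, 0.194 and 0.190 in the mOPC 1FA libraries (-1.72, SE 0.0848, limma adjusted p = 1.19e-06), and Babam2 one of 0.120, 0.0979 and 0.0936 against 0.542, 0.578 and 0.654 (2.51, SE 0.136, limma adjusted p = 1.94e-06). Jarid2 and Babam2 thus had a lower ratio in the cell type in which they had fewer contacts. A gene with few contacts has fewer pairs that can pass the calling, and this was not separated from a change of distance.

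The pairs themselves were less often shared between the cell types than the genes or bins. Of the listed 1 to 10 Mb pairs 12034 were in both mESC 1FA and mOPC 1FA, which is 22.3% of the mESC 1FA pairs and 22.1% of the mOPC 1FA pairs. For genes the shared 1293 were 54.7 and 60.0%, and for bins the shared 18016 were 50.7 and 52.9%. Of the pairs at 100 kb to 1 Mb 42.9% of those in mESC 1FA and 64.6% of those in mOPC 1FA were shared, and beyond 10 Mb 2.89 and 2.62%. These shares are descriptions without a test, and all depend on the calling limit of each group. In the same cell type, 73.7% of the mESC 2FA pairs were in the mESC 1FA list.

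Gene-to-gene contacts were often listed in 1 direction. In mESC 1FA the RNA of 1 gene met the DNA of another in 29139 pairs of genes, and in 4788 of these the partner was itself an RNA with 1 to 10 Mb contacts, of which 1902 (39.7%) also had the reverse contact. Wwox RNA met Cdh13, a cadherin gene, 1706 times with no reverse contact, and Ptprg RNA met Fhit, the gene of another fragile site, 1485 times against 161 in reverse. In mOPC 1FA 2448 of 5914 (41.4%) were reciprocal. Babam2 RNA met Lhfpl3 1781 times against 298 in reverse, Zbtb20 RNA met Lsamp 1577 times against 567, and Pvt1 RNA met Asap1 1503 times against 509.

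Among the DNA bins, limma over 7788 bins with at least 10 contacts in every library of 1 of the groups called 4002 higher in mOPC 1FA (51.4%) and 2861 lower (36.7%). Of these bins 1254 were listed at 0 in mOPC 1FA and 1658 in mESC 1FA, and of the 4876 listed in both 2344 were higher and 1607 lower. The bins with most contacts in mESC 1FA were, with 1 exception on chromosome 17 described below, met almost only by a single RNA. The bin at chr8:116350001-116375000 held 186 contacts, 175 of them of Wwox, at 23.6, 23.8 and 22.9 per 1000000 in mESC 1FA and 14.5, 14.2 and 19.5 in mOPC 1FA. The bin at chr13:43700001-43725000 held 183 contacts, all of Jarid2, at 22.9, 23.3 and 22.9 per 1000000 in mESC 1FA and 4.98, 5.22 and 3.5 in mOPC 1FA. The 5 bins that fell most in mOPC 1FA by the naming rule lay at chr13:43575001-43725000 and had log2 fold changes of -2.29 to -3.62, and they passed the filter through mESC 1FA alone. Bins with contacts had a median GC content of 43.8% in mESC 1FA and 42.6% in mOPC 1FA, against 41.0% over all 105739 bins of the genome.

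In mOPC 1FA the leading bins lay together on chromosome 5 and met many RNAs each. The bin at chr5:31175001-31200000, which holds Gtf3c2, Eif2b4 and Snx17, had 973 contacts of 22 RNAs, at 152.4, 158.5 and 151.1 per 1000000, and 7 contacts of 1 RNA in mESC 1FA. The neighbouring bin at chr5:31200001-31225000 had 907 contacts of 23 RNAs and was listed at 0 in mESC 1FA. The RNA 5031425E22Rik, encoded at chr5:23382308-23434269, gave 353 of the 973, and 84.8% of its own contacts lay beyond 5 Mb, with 17% on the 3′ side. Of the bins met by at least 10 RNAs, 148 were in mOPC 1FA, 1 in mESC 1FA and 1 in mESC NPM. In a window chosen after its values had been seen, RNA or DNA at 22 to 24 Mb with its partner at 31 to 39 Mb of chromosome 5, 3.18 to 3.35% of the mOPC 1FA contacts and none in the 10 mESC libraries were found. All distances are those of the mm10 reference, and whether Oli-neu carries this part of chromosome 5 in the mm10 order was not tested. Without the first 45 Mb of chromosome 5, 661 genes were called higher and 887 lower.

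**Figure D5:**
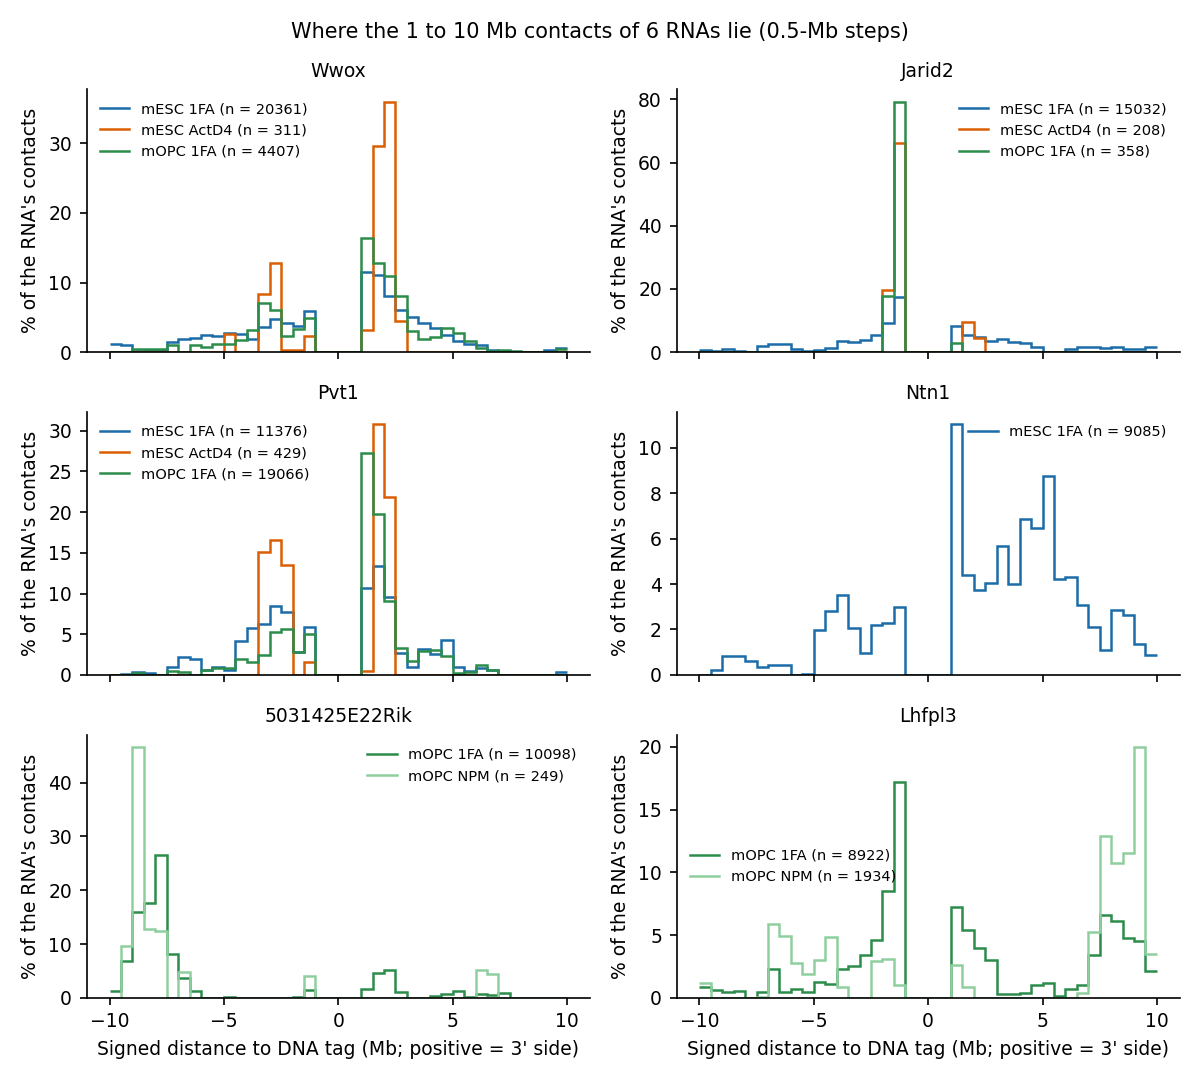
Share of an RNA's 1 to 10 Mb contacts (percent, y axis) by signed distance (x axis, Mb, in steps of 0.5 Mb, positive on the 3′ side of the RNA) for Wwox, Jarid2, Pvt1, Ntn1, 5031425E22Rik and Lhfpl3, over pooled libraries of the groups named in each panel. Ntn1 contacts lie mostly on the 3′ side (77.5%), and 5031425E22Rik contacts in mOPC 1FA lie mostly beyond 5 Mb on the 5′ side.

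After actinomycin D, 1229 genes could be tested against mESC 1FA, and 1214 were called lower (98.8%) and 7 higher (0.57%). Of the 1229, 1059 were listed at 0 in mESC ActD4, so most of these calls compare a level with a gene that was not listed. Of the 170 listed in both groups 155 were lower and 7 higher, with a median log2 fold change of -2.43. Scaled to the total of 1 to 10 Mb contacts in place of all listed interactions, 526 were lower and 148 higher, and with TMM-like factors 642 and 76. Both scales start from the 1 to 10 Mb totals, which were 5407 and 3167 in the mESC ActD4 libraries. The prior count over these totals set the values of genes listed at 0, so these counts give no direction for such genes. With equal pooled numbers 64 genes could be tested, 39 lower and 10 higher. The fit of this comparison pooled the spread across genes almost fully, so its p-values are extreme and only the calls are given. All 173 genes of mESC ActD4 and 1143 of its 1184 pairs (96.5%) were also in the mESC 1FA list.

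Wwox stood at 482.4 and 432.9 contacts per 1000000 after actinomycin D, below the 2442 to 2792 of mESC 1FA (log2 fold change -2.48, SE 0.105), and met 29 bins. Jarid2 stood at 300.9 and 325.7 (-2.59, SE 0.119), Pvt1 at 644.7 and 631.4 (-1.15, SE 0.114) and Ntn1 at 14.3 and 11.9 (-6.27, SE 0.206). All 4 were called lower and no library overlapped with mESC 1FA, though Ntn1 passed the filter through mESC 1FA alone. Exoc4 was less reduced, at 916.9 and 841.9 (-0.86, SE 0.106, called lower). Tet1, Kcnq1ot1, Kat6b, a histone acetyltransferase gene, and Pde4d, a phosphodiesterase gene, were listed at 0 in both actinomycin D libraries.

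The 7 genes called higher were Snord118, Gm20388, 1110038B12Rik, Stt3b, Setbp1, Cblb and Adgrl1, of which the 5 last named averaged under 6 contacts per library after actinomycin D. Snord118 and Gm20388 were the 2 still called with the replicate number as a block. Snord118, the U8 small nucleolar RNA needed for 28S ribosomal RNA maturation, was at 171.9 and 194.6 contacts per 1000000 against 6.00, 20.1 and 5.65 in mESC 1FA (log2 fold change 4.36, SE 0.342). Its 121 contacts lay in 11 bins, all of them beyond 5 Mb, with a median distance of 8.89 Mb. Gm20388 was at 2097 and 1962 against 1078, 1008 and 916.8 (1.02, SE 0.104) and made up 16.0% of the mESC ActD4 contacts. Of its DNA tags 78.2% lay inside its own model, against 48.6% in mESC 1FA, and 88.9% of its RNA tags lay inside other genes. The contacts of Gm20388 are thus largely contacts within and between the genes of this part of chromosome 8.

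The listed reach was lower as well. Of 1229 genes 1172 were called with a lower reach after actinomycin D (95.4%) and 22 with a higher one (1.79%), and of the 170 listed in both groups 160 and 4, the 4 being Snord118, Setbp1, 1110038B12Rik and Stt3b. The other 1059 genes were listed at 0 in mESC ActD4, and the prior count set their ratio. Fewer pairs passing the calling can also lower a ratio, and this was not separated from a change of distance. The reach of Wwox was 0.388 and 0.346 against 1.21 to 1.24 in mESC 1FA (log2 difference -1.74, SE 0.137). That of Jarid2 was 0.117 and 0.131 against 0.653 to 0.671 (-2.42, SE 0.199), and that of Gm20388 was 0.248 and 0.225 against 0.252 to 0.293, which was not called (-0.20, SE 0.223, limma adjusted p = 0.365). With equal pooled numbers 34 of 64 genes had a lower and 11 a higher reach, with a median log2 difference of -0.67 against -3.24 over the 1229 genes. Of 3929 bins 3391 were called lower (86.3%) and 211 higher (5.37%), but among the 567 bins listed in both groups 29 were lower and 211 higher, and scaled to the total of 1 to 10 Mb contacts 1 was lower and 1762 higher. Of the 3929 bins 3362 were listed at 0 in mESC ActD4, among them most bins called lower on the main scale. Most of the 1762 bins had no contact after actinomycin D either, and the prior count set their values. A bin listed in both groups needs a pair that passed the calling. Relative to all listed interactions, the fewest contacts of such a pair were higher in mESC ActD4 than in mESC 1FA. The 211 bins are thus in part picked for high values. None of these counts gives a direction for bins.

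With 2% formaldehyde few RNAs moved upward. Of 1251 genes tested, 491 were called lower in mESC 2FA (39.2%) and 32 higher (2.56%), and with the replicate number as a block 575 and 41. Scaled to the total of 1 to 10 Mb contacts 324 were lower and 59 higher, and with TMM-like factors 242 and 138. Without 1 of the mESC 1FA libraries in turn, 18, 17 and 19 were called higher. Among the leading RNAs Wwox (2268, 2571 and 2429 contacts per 1000000), Jarid2 (1644, 1948 and 1816), Exoc4 (1600, 1825 and 1755) and Pvt1 (1532, 1549 and 1615) overlapped with mESC 1FA and were not called. Among those that fell, Ywhae, which encodes a 14-3-3 protein, was at 3.12, 1.97 and 4.37 against 20.2, 16.8 and 20.1 (log2 fold change -2.57, SE 0.317) and Kat6a, a histone acetyltransferase gene, at 4.46, 2.95 and 3.98 against 19.1, 18.8 and 22.2 (-2.35, SE 0.274), and both passed the filter through mESC 1FA alone. Malat1 fell from the levels above to 179.2, 138.5 and 134.4 (-1.22, limma adjusted p = 0.00095) and Neat1 to 1.78, 0.983 and 0.795. The rises were small. Tenm4, a teneurin gene, was at 442.7, 319.8 and 398.0 against 299.9, 234.7 and 287.7 (0.49, SE 0.143, limma adjusted p = 0.0154), and Fut9, a fucosyltransferase gene, at 41.0, 28.5 and 32.6 against 19.1, 18.8 and 26.5 (0.66, SE 0.207, limma adjusted p = 0.022). Tenm4 lost its call without the second mESC 1FA library (limma adjusted p = 0.0722) and Fut9 without the first (0.0728) or the second (0.0737) or without the first mESC 2FA library (0.0667). Of 6 cohesin and CTCF genes tested 5 were lower and of 9 mESC markers 2 were lower and 1 higher, against 39.2% lower and 2.56% higher of all tested genes.

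In the NPM libraries few 1 to 10 Mb contacts were listed. In mESC NPM 1223 of 1231 tested genes were called lower than in mESC 1FA (99.4%) and 5 higher (0.406%), and 1212 were listed at 0. Scaled to the 1 to 10 Mb total the calls were 37 lower and 1012 higher. Most genes called higher there had no contact in mESC NPM, and the prior count over totals of 159 and 391 contacts set their values. That scaling therefore cannot give a direction for genes listed at 0. Of the 18 genes listed in both groups, 11 were lower and 4 higher on the main scale. With equal pooled numbers 46 of 46 genes were lower. A single bin, chr17:39825001-39850000, took 65.4 and 82.1% of the contacts of the 2 libraries, 425 contacts of 26 RNAs in all, against 252 contacts of 13 RNAs in mESC 1FA. Among these RNAs, Btbd9 gave 35 of the 425, Zfp57, which maintains imprints, 28, and Gabbr1, a GABA receptor subunit gene, 27. Zfp57 was at 27.6 and 26.3 contacts per 1000000 in mESC NPM and 1.12, 2.46 and 0.706 in mESC 1FA (log2 fold change 4.26, with the filter passed through mESC NPM alone), and Hsp90ab1, a chaperone gene, at 25.3 and 19.7 while listed at 0 in mESC 1FA. In mESC 1FA the bin was met mainly by 1110038B12Rik (57 contacts) and Snord52 (40 contacts).

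The 100 bases of mm10 at chr17:39848132-39848231 (plus strand), which held 62 of the 425 DNA tags, are shown because the bin carries most of the mESC NPM contacts. Capitals mark the 71 bases inside Rn18s-rs5, an 18S ribosomal RNA related sequence that RefSeq places at chr17:39846354-39848202, and 135 of the 425 DNA tags (31.8%) lay in that annotation.
Chromosome 17 bin: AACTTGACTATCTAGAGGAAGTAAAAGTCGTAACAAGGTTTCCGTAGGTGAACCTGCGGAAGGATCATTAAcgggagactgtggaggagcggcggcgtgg
Ribosomal RNA genes exist in many copies at several chromosomes. The authors kept tags that mapped uniquely, and whether the DNA tags of this bin were placed at the right copy was not tested. The bin held no more than 0.0605% of the 1 to 10 Mb contacts in any mESC 1FA, mESC 2FA or mOPC 1FA library.

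In mOPC NPM, 1091 of 1092 tested genes were called lower than in mOPC 1FA (99.9%) and 0 higher (0%), by limma with Benjamini-Hochberg adjustment and also at an unadjusted p under 0.05, and 1062 were listed at 0. Scaled to the 1 to 10 Mb total, 353 were lower and 605 higher, but only 30 genes were listed in both groups. Most genes called higher there thus had no contact in mOPC NPM and took their value from the prior count. Of the 30 genes 29 were lower and 0 higher on the main scale, and with equal pooled numbers 98 of 98 genes were lower. Lhfpl3, a tetraspan protein gene of oligodendrocyte progenitors, held 1934 of the 2757 contacts and was at 744.1 and 829.2 contacts per 1000000 against 1318, 1515 and 1408 in mOPC 1FA (limma log2 fold change -0.85 with an SE of 0.553, adjusted p = 0.159). It was the 1 gene of the 1092 that was not called, although its libraries did not overlap between the groups. With voom weights all 1092 genes were called lower, Lhfpl3 among them. 5031425E22Rik was at 108.4 and 93.2 against 1433, 1649 and 1728, and Babam2 at 62.9 and 70.6 against 1928, 2167 and 2220. The median distance of the Lhfpl3 contacts was 7.88 Mb in mOPC NPM and 2.68 Mb in mOPC 1FA. The first 45 Mb of chromosome 5 held 92.6 and 89.4% of the mOPC NPM contacts, 10.8 to 11.8% of those in mOPC 1FA and at most 0.553% of those in any mESC library.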

How the data were processed

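RADICL-seq libraries of mESCs and mOPCs were analysed as 15 libraries, since each library had separate RNA and DNA entries (32 entries in all, with 1 library sequenced again). The authors aligned the tags to mm10 with BWA 0.7.15-r1140 after base calling with CASAVA 1.8, assigned RNA tags to GENCODE M14 genes, tested each pair of a transcript and a 25-kb bin on pooled replicates by a one-sided binomial test, and deposited the interactions of pairs with an adjusted p-value under 0.05. The files hold tag coordinates, other annotation columns and these deposited p-values, which were not used as results here. They have no count column. Totals of 251802 to 2832717 listed interactions per library are not the sequencing depth, and no limit can be given for a gene listed at 0.

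Contacts were counted per RNA gene, bin and library and scaled to 1000000 listed interactions. Genes or bins with at least 10 contacts in every library of 1 group were tested with limma 3.58.1 in R 4.3.3 (log2, prior count 0.5, eBayes with trend, Benjamini-Hochberg under 0.05 over all features tested), on the 2 groups compared. Shares were tested by exact permutation over libraries, two-sided. These p-values measure the spread between batches of 1 line. Counting and figures used Python 3.11.15, pandas 2.3.3, numpy 2.4.6 and matplotlib 3.10.9, and the limma step was tested on simulated data. Names came from GENCODE M21 by ID, which matched 2361 of 2363 genes in mESC 1FA and 2154 of 2155 in mOPC 1FA. GC content and sequences were read from mm10, and Rn18s-rs5 from RefSeq. Members, gene lists and tests were chosen with earlier results of these data known. Named genes were the 10 with most contacts per group, the 6 with the largest change in each direction among called genes averaging at least 50 contacts in 1 group, and list members, and named bins the 5 of each kind. Genes named outside this rule, such as Ptprg and the chromosome 5 window, were chosen after their values were seen. Same-numbered mESC 1FA and mESC 2FA libraries deviated together over 946 genes (r = 0.269, 0.250 and 0.304), and a fit with the replicate number as a block was made. Alternatives were other scalings, prior counts and filters, voom weights, equal pooled numbers of interactions, leaving out each library, Fgfr2, Malat1 or chromosome 5, and another start of distance.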

Additional observations from a re-analysis of the deposited data

How the results depend on the processing

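Of 196 values of the main results under their alternatives, 171 kept their direction and their side of the threshold or, for counts of calls in both directions together, stayed within 1.5 times the main count. This number overstates stability. Shares compared between 2 groups could not cross the threshold, since their smallest possible p is 0.1 (exact permutation), and a turn of direction within a count was not scored. The values that moved were as follows, and the cause was not tested except where fewer features or libraries entered by construction. With equal pooled numbers and pairs of at least 20 contacts the share in mESC ActD4 lay 0.256 points above mESC 1FA. With a replicate block the NPM difference was -10.5 points (exact sign-flip permutation p = 0.125, the smallest possible with its pairs), and the mESC 2FA comparison called 616 genes. With the block, 2 genes and 122 bins were called higher for mESC ActD4, against 7 and 211. It changed no other call of a share and moved no other count of calls past 1.5 times. The difference in DNA tags in genes was -2.05 points in the 11 libraries without NPM and -2.98 points against contacts beyond 10 Mb. The excess on the 3′ side was 4.98 points with each pair counted once, and 1.5 points with each pair counted once in the 11 libraries without NPM, an alternative chosen after seeing the data. Without the filter on low counts 2784 genes were called between the cell types, 1232 for mESC 2FA and 1986 for mOPC NPM, with 2306 for reach between the cell types, 38827 bins between the cell types and 6416 bins for mESC ActD4. With equal pooled numbers, where far fewer features could be tested, the calls were 132 genes between the cell types (91 higher in mOPC 1FA and 41 lower), 11 for mESC 2FA, 49 for mESC ActD4, 46 for mESC NPM and 98 for mOPC NPM, with 120 and 45 for reach (cell types and mESC ActD4) and 27 and 4 for bins. For mESC ActD4, 718 genes were called with TMM-like factors and 674 scaled to the 1 to 10 Mb total, and 1763 bins with that total and 376 bins with a prior count of 2. Of these 1763 bins 1762 were higher, and most had no mESC ActD4 contact, since 3362 of 3929 were listed at 0. With that total the NPM calls went from 5 higher and 1223 lower to 1012 and 37 in mESC NPM, and from 0 and 1091 to 605 and 353 in mOPC NPM. With TMM-like factors mOPC NPM had 160 higher and 656 lower. Most genes called higher in these 3 fits had no NPM contact, since 1212 of 1231 and 1062 of 1092 were listed at 0. The prior count set their values, so these turns give no direction for them. Leaving out 1 library at a time gave 1614 to 1648 genes between the cell types, 367 to 550 for mESC 2FA (17 to 32 of them higher) and 1220 to 1281 for mESC ActD4, and no share difference changed sign. The 5 genes called higher in mESC NPM became 11 without its first library and 3 without its second. Of the 5 genes named as higher in mESC 2FA (Adamtsl1, Fut9, Ndufaf2, Tenm4 and Gm22973), each lost its call without at least 1 of the libraries. The distance from the edge of the annotated gene and the bin of the ribosomal RNA related sequence, both chosen as alternatives after seeing the data, changed no direction. They did lower some shares. With distance from the gene edge the mESC ActD4 shares were 0.789 and 0.774%, and without that bin the mESC NPM shares were 0.0130 and 0.0120%. Which pairs can be seen depends on the calling in each group, and its part in the low numbers of mESC ActD4 and both NPM groups was not tested. The distance between tag centres, planned as an alternative, was not run apart, because the files give 1 position per tag, which is its centre.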
